A study of Mus musculus with 10 samples.

Results

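H3K4me3 was examined at 63 homeobox genes that lie outside the Hox clusters, in oocytes with and without SETD1B. The genes were taken from the deposited table by name: every 5 kb window on chromosomes 1 to 19 assigned to a Pax, Lhx, Dlx, Irx, Msx, Emx, Otx, Gsx, Alx, Meis, Pitx, Nkx or Six-family gene, with *Lhx8* left out. They held 334 of the 544879 windows and were 63 of the 24722 annotated genes with a window on these chromosomes. For each gene the window with the highest mean over the 6 H3K4me3 libraries was taken, here called the highest window, and then all of its windows.

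Homeobox genes encode transcription factors that bind DNA through a homeodomain and lay out organs, axes and neural cell types in the embryo. Most are silent in the growing oocyte, where their CpG-rich promoters are typical sites of H3K4me3 without transcription, alongside Polycomb marks. H3K4me3 is placed by the SETD1 and MLL families of methyltransferases, and the MLL2 enzyme binds unmethylated CpGs. *Pax1* and *Pax9* are counted by name, although their proteins carry a paired domain without a homeodomain, and *Pax2*, *Pax5* and *Pax8* encode only part of one.

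H3K4me3 was profiled by ULI-nChIP-seq, native chromatin immunoprecipitation from few cells, in d21 GV oocytes, fully grown oocytes still arrested in meiotic prophase. The *Setd1b* cKO females (N = 3 libraries) were *Setd1b* floxed/floxed and Gdf9-Cre positive, and the *Setd1b* WT females (N = 3) were *Setd1b* floxed/floxed and Gdf9-Cre negative, all 21 days old and of strain C57BL6 in the labels, C57BL/6OlaHsd in the methods of the study. Both groups therefore carried the floxed alleles, each library was a pool of about 200 oocytes, and *Gdf9* drives Cre in oocytes from early follicle growth onwards, so the deletion covers oocyte growth only. In the methods of the study the WT females could also include Cre carriers with 1 intact allele, whereas the labels give Cre negative only. In pools, the mark in more oocytes and more of the mark per oocyte cannot be told apart.

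Values are given on the linear scale of the deposited table, enrichment-normalized RPKM, where 1.23 is the 40th and 6.77 the 99th percentile of every library. The libraries held 10856015 to 32775874 reads in windows, and the highest windows of the 63 genes held 6 to 237 reads per library. At *Setd1b* itself, the window of chr5:123145001-123150000 had 2.88 ± 0.612 (SD, n = 3) in cKO and 8.47 ± 1.16 in WT, with every cKO library below every WT library (adjusted p = 0.0124, limma with Benjamini-Hochberg adjustment over all windows). Among the oocyte markers 11 of 12 had a window, 4 of them were higher in cKO, none was called and the summed level was 53.8 to 55.8 in cKO and 61.7 to 63.7 in WT. Among the granulosa cell markers, the somatic cells around the oocyte, all 10 had a window, 8 were higher in cKO (against 51.1% of the highest windows of all genes), 1 was called as a gain by limma (*Foxl2*, against 1.22% of all genes, and not by edgeR, adjusted p = 0.744) and the summed level was 47.4 to 54.2 in cKO and 40.4 to 44.8 in WT. The lowest granulosa marker, *Fshr*, had 1.12, 3.21 and 0.747 in cKO and 0.915, 0.645 and 1.23 in WT, with only cKO replicate 3 above every WT library. The part of somatic chromatin in the differences below was not tested.

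H3K4me3 at the highest windows of the homeobox genes was higher in cKO than in WT oocytes. The cKO mean lay above the WT mean at 56 of the 63 genes, with a median difference of 1.16 normalized RPKM (quartiles 0.594 and 1.54). The median level over the genes was 5.72, 4.79 and 5.28 in cKO replicates 1, 3 and 4, and 4.47, 3.95 and 4.5 in WT replicates 1, 2 and 4, so that the lowest cKO library lay above the highest WT library. All 3 cKO libraries were above all 3 WT libraries at 29 genes and below them at 1 gene, *Meis3*. Among the highest windows of all 24722 genes, 13.5% had every cKO library above and 10.7% every cKO library below.

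Few of these differences passed the test in single windows. With limma over all windows (two-sided, adjusted p under 0.05), 4 of the 63 highest windows gained H3K4me3 in cKO and 0 lost it. These were *Pitx1*, *Irx4*, *Lhx2* and *Six3*. Over the highest windows of all genes, 1.22% were called as gains and 1.14% as losses. At an unadjusted p under 0.05, 30 of the 63 windows passed and 29 of them were higher in cKO, against 6152 of the 24722 highest windows of all genes, 3313 of them higher in cKO. By edgeR on the whole reads 1 highest window gained (*Pitx1*) and 0 lost, where over all genes 0.622% gained and 0.606% lost, and on log2(value + 1) there were 0 calls. The 4 calls were also lost without cKO replicate 4 and without any 1 of the WT libraries, and only that at *Pitx1* held without cKO replicate 3. Without cKO replicate 1 there were 7 gains, and with the replicate number as a block 18. Calls also rose over the whole table, gains and losses together, from 5539 to 17979 and 33433 of the 544879 windows.

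**Figure D1:**
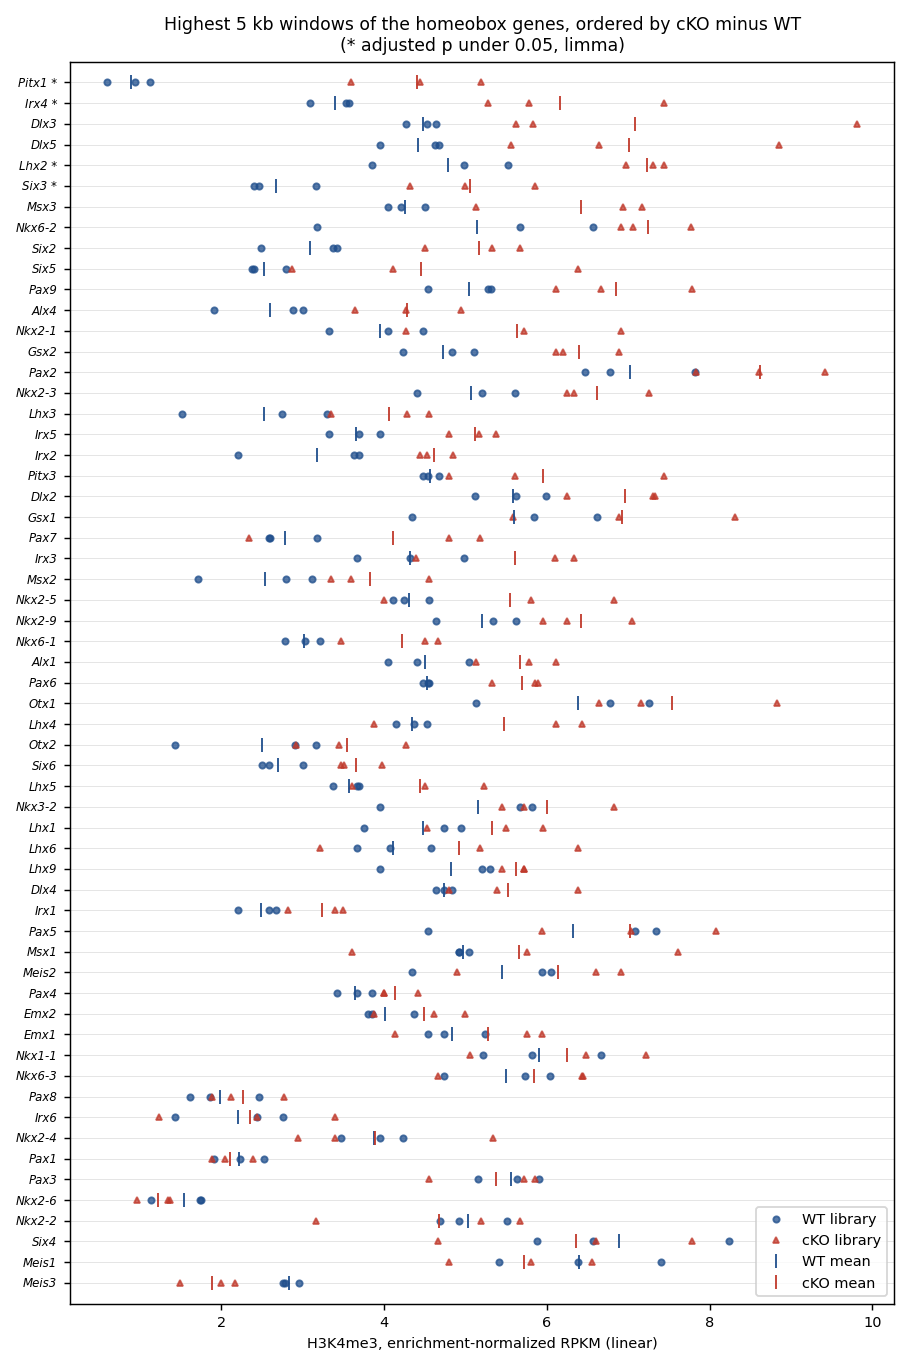
H3K4me3 (enrichment-normalized RPKM, linear) at the highest 5 kb window of 59 of the 63 genes, ordered by cKO minus WT; triangles are cKO libraries, circles WT libraries and vertical ticks group means. The cKO mean lies to the right of the WT mean at 52 of the 59 genes, *Pitx1* stands apart with WT values between 0.599 and 1.12, and *Meis3* at the bottom is the 1 gene with all cKO libraries below WT.

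The same shift was present in each pair of libraries with the same replicate number, as values without a test. Between cKO and WT replicate 1, 59 of the 63 genes were higher in cKO, with a median difference of 1.13. Between cKO and WT replicate 4, 53 were higher, with a median of 0.980, and 51 genes were higher in both. Over every gene's highest window the median difference was 0.0258, and over all windows it was −0.103. The input, sequenced without precipitation, had medians at the highest windows of 2.08 and 1.87 in cKO and 1.97 and 1.78 in WT replicates 1 and 4 (library-scaled reads per window).

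The size of the shift depended on the scale. By edgeR on the whole reads recovered from the table, scaled with TMM, 46 of the 63 highest windows were higher in cKO and the median log2 fold change was 0.15. On that scale the median over every gene's highest window was −0.11, and relative to it the homeobox genes had a median of 0.26, with 56 of 63 above it. Among the 10 genes that were higher on the deposited scale and lower by edgeR were *Emx1*, *Emx2*, *Lhx9*, *Meis2*, *Nkx1-1*, *Nkx2-4*, *Nkx6-3*, *Pax4* and *Pax5*. On log2(value + 1), 55 of 63 were higher, with a median difference of 0.27.

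The promoter sequences of 3 called genes and of *Meis3*, the gene with the largest decrease at its highest window, are shown for their CpGs. The number of CpGs per window is compared with the difference further on. They run from 250 bases before to 50 bases after a start (RefSeq, GRCm38.p6, plus strand), with CpGs in capitals. *Lhx2* is shown at both of its RefSeq starts because its difference lay at only one of them.
*Irx4*, chr13:73260247-73260546: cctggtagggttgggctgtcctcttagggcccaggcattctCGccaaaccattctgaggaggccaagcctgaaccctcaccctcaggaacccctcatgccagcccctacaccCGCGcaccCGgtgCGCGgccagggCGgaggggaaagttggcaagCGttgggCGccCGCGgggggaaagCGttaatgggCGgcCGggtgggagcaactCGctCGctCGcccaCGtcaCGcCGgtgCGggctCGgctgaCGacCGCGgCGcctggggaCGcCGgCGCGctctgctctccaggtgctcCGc
*Lhx2* upstream start, chr2:38339031-38339330: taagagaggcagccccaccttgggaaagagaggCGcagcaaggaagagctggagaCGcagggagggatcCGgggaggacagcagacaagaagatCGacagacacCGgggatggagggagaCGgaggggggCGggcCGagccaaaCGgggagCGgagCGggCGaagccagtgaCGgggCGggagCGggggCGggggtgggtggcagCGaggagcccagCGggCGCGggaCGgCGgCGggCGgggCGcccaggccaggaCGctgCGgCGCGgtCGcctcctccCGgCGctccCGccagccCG
*Lhx2* downstream start, chr2:38351058-38351357: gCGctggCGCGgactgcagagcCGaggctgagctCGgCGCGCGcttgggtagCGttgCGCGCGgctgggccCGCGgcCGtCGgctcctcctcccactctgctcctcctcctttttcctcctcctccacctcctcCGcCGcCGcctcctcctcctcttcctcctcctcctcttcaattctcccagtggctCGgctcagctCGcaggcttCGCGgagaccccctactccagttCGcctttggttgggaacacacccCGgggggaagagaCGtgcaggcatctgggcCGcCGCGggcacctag
*Six3*, chr17:85620584-85620883: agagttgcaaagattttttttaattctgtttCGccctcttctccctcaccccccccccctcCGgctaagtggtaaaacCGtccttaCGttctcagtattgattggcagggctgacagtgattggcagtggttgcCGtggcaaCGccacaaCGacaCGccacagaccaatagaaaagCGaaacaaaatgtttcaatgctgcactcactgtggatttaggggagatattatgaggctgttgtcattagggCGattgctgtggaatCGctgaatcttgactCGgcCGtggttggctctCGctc
*Meis3*, chr7:16175145-16175444: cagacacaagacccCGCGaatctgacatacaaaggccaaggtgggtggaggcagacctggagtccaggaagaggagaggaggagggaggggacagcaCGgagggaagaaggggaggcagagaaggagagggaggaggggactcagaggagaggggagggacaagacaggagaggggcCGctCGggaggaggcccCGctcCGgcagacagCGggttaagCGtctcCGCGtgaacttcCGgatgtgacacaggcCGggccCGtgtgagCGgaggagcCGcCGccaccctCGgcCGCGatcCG
These held 31, 34, 29, 14 and 21 CpGs. Of the 63 genes, 44 matched a RefSeq promoter, 55 promoters in all, with a median of 17 CpGs against 7 for all 32851 promoters in the table. At least 20 CpGs were present in 24 of the 55 (43.6%) and in 26.5% of all promoters.

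*Pitx1*, a paired-type factor of hindlimb and pituitary development, had the largest difference among the highest windows and among all 334 windows. At the start windows its difference of 2.14 was below those of *Irx4* (2.77) and *Msx3* (2.16). In its highest window, chr13:55825001-55830000, the values were 4.45, 5.19 and 3.59 in cKO replicates 1, 3 and 4 and 1.12, 0.937 and 0.599 in WT replicates 1, 2 and 4. All WT values were below the 40th percentile of their libraries, and all cKO values were above the highest WT value. The means were 4.41 ± 0.80 and 0.887 ± 0.266 (SD, n = 3 each), a difference of 3.52 ± 0.439 (SE, adjusted p = 0.0159, limma with Benjamini-Hochberg adjustment). In whole reads the window held 66, 47 and 89 in cKO and 6, 10 and 10 in WT, a log2 fold change of 2.98 (adjusted p = 8.24e-10, edgeR).

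All 3 windows of *Pitx1* were called, each by both limma and edgeR. The gene, chr13:55825051-55836192 on the minus strand, starts in the window of chr13:55835001-55840000, which had 3.20 ± 0.458 in cKO and 1.06 ± 0.0839 in WT. The window between them had 3.76 ± 0.421 and 0.825 ± 0.321. Both adjoining windows upstream, to which no gene was assigned, were also called by limma. The one from 55845001 held the largest difference at the locus, 3.91, between 6.63 in cKO and 2.72 in WT (adjusted p = 0.0109, limma), and was not called by edgeR (adjusted p = 0.165). By limma the gain covered 5 neighbouring windows. The next windows on either side had 1.55 and 2.44 in cKO and 0.922 and 0.954 in WT and did not pass with limma, while edgeR called the second of them, downstream of the gene (adjusted p = 0.00165).

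At *Pitx3*, a factor of lens and midbrain dopamine neurons and the Pitx gene with the highest level, cKO values were 5.61, 7.43 and 4.80 against 4.47, 4.54 and 4.68 in WT, with no overlap between the groups (difference 1.39, adjusted p = 0.299, limma). Without cKO replicate 3 the difference was 0.642.

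*Irx4*, an Iroquois factor of the heart ventricle, was the other gene called in the window of its annotated GENCODE start. Its window, chr13:73260001-73265000, had 5.78, 7.43 and 5.28 in cKO replicates 1, 3 and 4 and 3.53, 3.56 and 3.09 in WT replicates 1, 2 and 4. The groups did not overlap, and WT varied less than cKO. The means were 6.16 ± 1.13 and 3.39 ± 0.266, a difference of 2.77 ± 0.525 (SE, adjusted p = 0.0439, limma), while edgeR gave a log2 fold change of 0.67 (adjusted p = 0.583). All 6 Iroquois genes, which lie in groups on chromosomes 8 and 13 and pattern neural tube, limb and heart, were higher in cKO. Of these, 4 were so without overlap, against 13.5% of the highest windows of all genes. *Irx3* had the highest level of the family over the 6 libraries, 5.61 ± 1.06 in cKO and 4.32 ± 0.657 in WT, and the differences of the family ranged from 0.147 to 2.77.

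At *Lhx2*, a LIM-homeodomain factor of forebrain, eye and hair follicle, the difference lay inside the gene and not at its upstream start. In the highest window, chr2:38350001-38355000, which holds the downstream start, the values were 7.44, 7.30 and 6.97 in cKO and 5.52, 3.86 and 4.98 in WT. The groups did not overlap, and the cKO libraries lay close together. The difference was 2.45 ± 0.449 (SE, adjusted p = 0.0399, limma), with an edgeR log2 fold change of 0.36 (adjusted p = 0.827). The window of the upstream start, chr2:38335001-38340000, had 4.45, 4.53 and 4.27 in cKO and 5.68, 4.34 and 4.35 in WT, a difference of −0.374 (adjusted p = 0.661, limma). A second called window, chr2:38360001-38365000, rose from 1.36 ± 0.249 to 3.65 ± 0.0432 and was also called by edgeR (log2 fold change 1.62, adjusted p = 0.000603). Of the 7 windows of *Lhx2*, 5 had every cKO library above every WT library, where 9.88% of all 544879 windows had every cKO library above and 9.95% every one below.

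The 7 Lhx genes, which specify motor neurons, interneurons, gonad and kidney, were all higher in cKO at their highest windows, by 0.804 to 2.45 (*Lhx9* lower by edgeR). Of these, 3 were higher without overlap, against 13.5% of the highest windows of all genes.

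*Six3*, which represses Wnt signalling in the anterior forebrain and eye, was called at chr17:85620001-85625000. The values were 5.0, 5.85 and 4.31 in cKO replicates 1, 3 and 4 and 3.16, 2.40 and 2.46 in WT replicates 1, 2 and 4. No values overlapped. The difference was 2.38 ± 0.448 (SE, adjusted p = 0.0431, limma), with an edgeR log2 fold change of 0.77 (adjusted p = 0.435). The window just upstream, assigned to the antisense transcript *Six3os1*, was called as well, with 4.73 in cKO and 2.62 in WT. The called window of *Six3* holds a transcript start but not the annotated GENCODE gene start. The window of that gene start, chr17:85610001-85615000, was not called (difference 1.75, adjusted p = 0.236, limma). Its groups overlapped, with 5.78, 2.81 and 5.09 in cKO and 3.06, 2.59 and 2.79 in WT.

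*Six4*, a factor of muscle precursors, had the highest level of the family and a lower mean in cKO. Its highest window had 6.61, 4.66 and 7.79 in cKO and 6.56, 8.23 and 5.87 in WT, a difference of −0.539 ± 0.786 (SE). Its sign turned without cKO replicate 3 (0.306) or WT replicate 2 (0.132). The other 5 Six-family genes were higher in cKO (4 of them also by edgeR), 4 without overlap, against 13.5% of the highest windows of all genes.

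**Figure D2:**
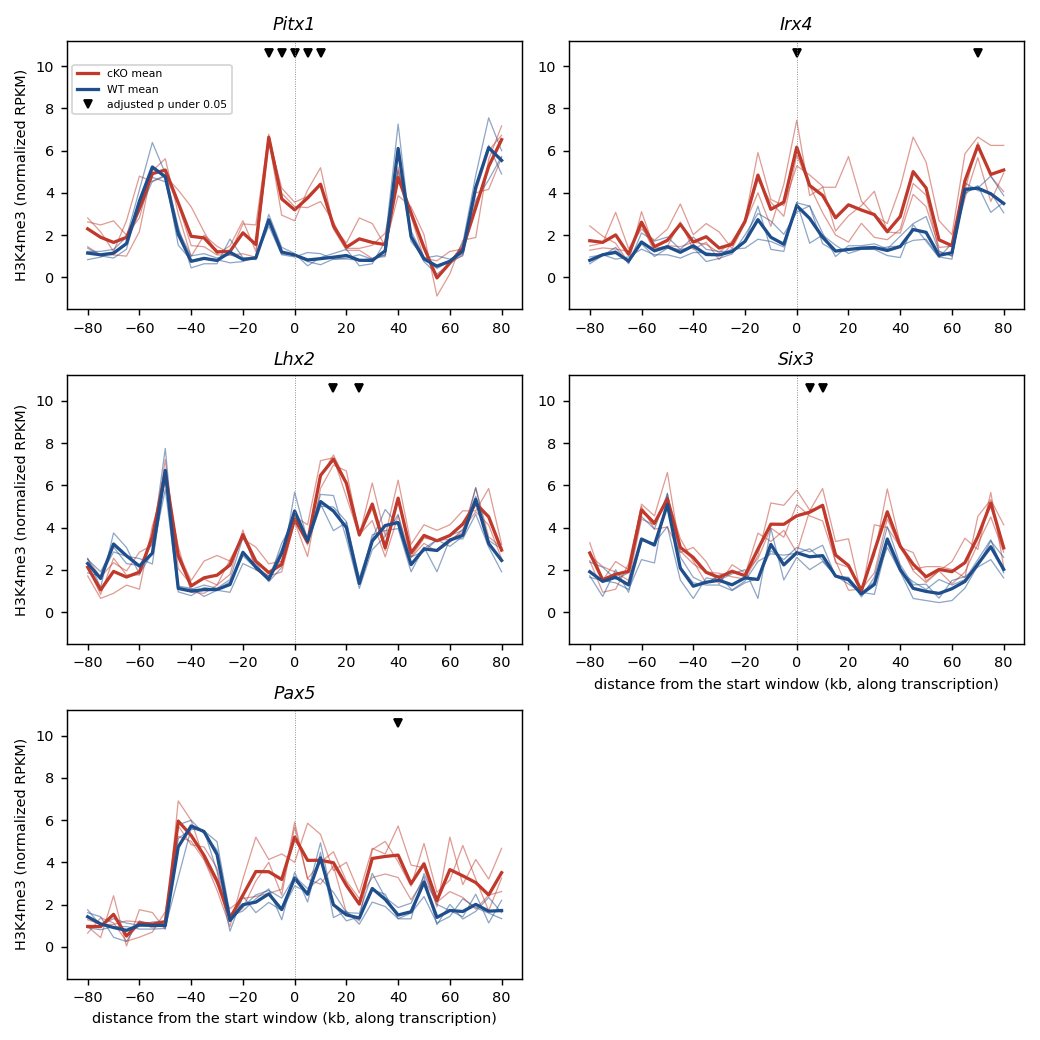
H3K4me3 (normalized RPKM) in 5 kb windows within 80 kb of the window with the annotated start of *Pitx1*, *Irx4*, *Lhx2*, *Six3* and *Pax5*, in the direction of transcription; thin lines are libraries, thick lines group means, and arrowheads windows called by limma. At *Pitx1* the called windows run from −10 to 10 kb while WT lies between 0.825 and 2.72, and at *Lhx2* the gap between the genotypes opens downstream of the start.

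*Pax5*, the factor that commits lymphoid cells to the B lineage, stood out by the breadth of its increase. It is a long gene on chromosome 4 (44524757 to 44710487, minus strand) with 37 windows. Of these, 36 were higher in cKO and 19 had every cKO library above every WT library (against 9.88% of all windows), with a median difference of 1.59. The highest window was not among those that differed most: cKO values were 5.94, 7.04 and 8.08 and WT values 7.09, 4.54 and 7.34 (difference 0.696, adjusted p = 0.643, limma). That difference turned to −0.197 without WT replicate 2. The largest difference lay at chr4:44545001-44550000, where cKO values were 5.67, 7.04 and 7.06 and WT values 3.48, 3.08 and 3.33. It was 3.29 ± 0.435 (SE, adjusted p = 0.0186, limma), and in all 3 called windows of the gene the groups were apart. The others started at 44615001 (difference 1.77, adjusted p = 0.0488) and 44670001 (2.84, adjusted p = 0.0491), and the call of the first of these was lost with an intensity trend in limma (adjusted p = 0.0803). edgeR called the last of these (log2 fold change 1.50, adjusted p = 0.00281) and 1 further window, from 44540001.

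The median over all windows was lower at the other long Pax genes, while the highest windows of *Pax2* and *Pax7* differed by more than that of *Pax5*. *Pax2*, needed for kidney and optic nerve, had the highest level of all 63 genes, 8.60, 9.41 and 7.84 in cKO and 7.82, 6.77 and 6.47 in WT, just without overlap (difference 1.59, adjusted p = 0.159, limma). By edgeR the log2 fold change of its highest window was 0.017 (adjusted p = 0.994). Of its 17 windows 16 were higher in cKO. The remaining window had a difference of −1.86, the largest decrease among the 334 windows, with every cKO library below every WT library. It was not called as a loss. Of the higher windows edgeR called 2, from 44800001 and 44805001, which limma did not (adjusted p = 0.27 and 0.265). *Pax3*, a regulator of neural crest and muscle precursors, had 5.72, 5.85 and 4.56 in cKO and 5.15, 5.90 and 5.64 in WT (difference −0.187, and 0.223 without cKO replicate 4), and 14 of its 20 windows were higher in cKO. *Pax7*, its relative in muscle stem cells, was higher in all 20 windows, with a median difference of 0.80. Of the 9 Pax genes 7 were higher in cKO at the highest window, with *Pax4* and *Pax5* lower by edgeR.

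The Dlx genes, which act in jaw, limb and forebrain interneurons, were all higher in cKO (4 of 4, 3 without overlap), with a family median of 1.99. Of the highest windows of all genes, 51.1% were higher in cKO and 13.5% were so without overlap. *Dlx3*, of placenta and skin, had 5.83, 9.81 and 5.62 in cKO against 4.26, 4.63 and 4.53 in WT. The groups were apart but cKO replicate 3 was far above the other cKO libraries, and the difference of 2.61 ± 0.914 (SE) did not pass (adjusted p = 0.208, limma) and was 1.25 without that library. *Dlx5*, of bone and limb, had 5.55, 6.64 and 8.85 in cKO and 4.63, 3.95 and 4.68 in WT, a difference of 2.60 ± 0.70 (adjusted p = 0.11, limma, and 1.68 without cKO replicate 4). *Dlx2*, with the highest level over the 6 libraries, went from 5.58 ± 0.439 to 6.96 ± 0.619. *Dlx4*, a neighbour of *Dlx3*, was called at the window from 95140001, with 5.33, 6.64 and 5.86 in cKO and 3.74, 3.76 and 4.11 in WT (difference 2.08 ± 0.403, adjusted p = 0.0464, limma), but not at the window of its start, its highest. The call was lost with an intensity trend in limma (adjusted p = 0.0761) and by edgeR (log2 fold change 0.40, adjusted p = 0.777).

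Families of brain and craniofacial patterning were higher in cKO at every member on the deposited scale, the Emx genes at none by edgeR. This held for Alx (3 of 3), Msx (3 of 3), Emx (2 of 2), Otx (2 of 2) and Gsx (2 of 2), none of them called. At *Msx3*, a dorsal neural tube factor, cKO values were 6.94, 7.17 and 5.13 and WT values 4.21, 4.05 and 4.5, without overlap (difference 2.16 ± 0.519, adjusted p = 0.0811, limma). At *Otx1*, of the cortex, cKO values of 8.83, 6.64 and 7.16 overlapped WT values of 6.77, 7.26 and 5.13, and the difference of 1.16 was 0.514 without cKO replicate 1 and 0.525 without WT replicate 4. The difference at *Gsx1* (1.33), of ventral forebrain progenitors, came with overlapping groups, and was 0.634 without cKO replicate 4, 0.698 without WT replicate 2 and 2.0 without cKO replicate 3. *Emx1*, a marker of the dorsal telencephalon, differed by 0.441 (0.109 to 1.01 when single libraries were left out, the lowest without cKO replicate 1 and the highest without cKO replicate 3) and had an edgeR log2 fold change of −0.01.

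The 13 Nkx genes, which specify ventral neural tube, heart, thyroid and gut, were higher in cKO at 11 and lower at 2, 3 of the 11 being lower by edgeR. Of the 13, 4 were higher without overlap, against 13.5% of the highest windows of all genes. *Nkx6-2*, of oligodendrocytes and interneurons, had 7.77, 6.91 and 7.06 in cKO and 5.68, 3.17 and 6.56 in WT, without overlap but with WT replicate 2 far below the other WT libraries (difference 2.11 ± 0.729, adjusted p = 0.203, limma, and 1.13 without that library). The 2 genes that were lower were *Nkx2-2*, of ventral interneurons and the endocrine pancreas, with a difference of −0.365 ± 0.597, and *Nkx2-6*, of the pharyngeal arches and heart, with −0.315 ± 0.351 (−0.519 without WT replicate 2 to −0.184 without cKO replicate 3). *Nkx2-6* was hardly marked at all, with 0.965 to 1.37 in cKO and 1.13 to 1.75 in WT. Without cKO replicate 4 the difference at *Nkx2-2* was 0.392.

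The Meis genes, cofactors of Hox and Pbx proteins, were the family with fewer members higher than lower in cKO (1 of 3, and 0 of 3 by edgeR). *Meis3* had 2.17, 1.49 and 2.00 in cKO and 2.96, 2.79 and 2.76 in WT at the window that holds its start. The groups were apart, and the difference of −0.944 ± 0.343 (SE) did not pass (adjusted p = 0.225, limma). *Meis1*, a stem cell factor of blood, had 6.55, 4.79 and 5.81 in cKO and 5.41, 6.39 and 7.40 in WT at its highest window, a difference of −0.682 with overlap, which was −0.22 without cKO replicate 3, −0.181 without WT replicate 4 and −1.18 without WT replicate 1. At the window of its start it was higher in cKO without overlap (5.83, 6.64 and 4.70 against 3.84, 4.05 and 4.47, adjusted p = 0.15, limma), as were the means in 23 of its 28 windows. *Meis2*, the longest with 42 windows, was higher in 29 of them. The highest windows of *Meis1* and *Meis2* lay inside the genes and held 42 and 43 CpGs.

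Several of the genes are neighbours, so the 63 genes are not 63 independent sites. Joined where their highest windows started within 300 kb, they formed 54 positions, 6 of them with more than 1 gene, and at 48 of the 54 every gene was higher in cKO. On chromosome 12, *Nkx2-1*, *Nkx2-9* and *Pax9* within 165 kb differed by 1.22 to 1.81, and 2 of the 3 did so without overlap. On chromosome 2, *Nkx2-4*, *Nkx2-2* and *Pax1* within 290 kb differed by −0.365 to 0.0115, and all overlapped. These groups were chosen after their values were seen and were not tested against each other.

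Over all 334 windows, 285 were higher in cKO, the median difference was 0.691, and 109 had every cKO library above every WT library against 6 below. Of all windows, 43.7% were higher in cKO, 9.88% had every cKO library above and 9.95% every one below. Limma called 13 windows as gains and 0 as losses, in *Pitx1* (3), *Pax5* (3), *Lhx2* (2), *Irx4*, *Six3* and *Dlx4* among others. Of all 544879 windows, 0.563% were called as gains and 0.454% as losses. edgeR called 8 of the 334 as gains and 0 as losses, in *Pitx1*, *Pax5*, *Lhx2* and *Pax2*, against 1.07% gains and 1.22% losses among the windows it tested, and 5 windows were called by both. At 46 of the 63 genes every window was higher in cKO, 14 of these being genes with a single window.

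On the deposited scale the increase was larger around the start of the genes than over all of their windows, and by edgeR it was not. The median edgeR log2 fold change was 0.16 at the start windows and 0.29 over the 334 windows (258 higher in cKO), against −0.06 over protein-coding start windows and 0.09 over all windows. The start windows of 3 of the 63 genes had no gene's name in the table and those of 13 had another gene's, so that these 16 are not among the 334. In the window with the annotated start, 56 of 63 genes were higher in cKO, with a median difference of 1.02, and limma called 2 gains (*Pitx1*, *Irx4*) and 0 losses. Among protein-coding start windows 1.24% were called as gains and 0.756% as losses. The median difference over the 63 genes was 1.04 in the next window downstream, 0.555 in the next upstream and 0.314 at 50 kb upstream, whereas for all protein-coding genes it stayed between 0.0363 and 0.151. Of the highest windows, 26 held the annotated gene start and 40 the start of any transcript. The 40 had a median difference of 1.16 and the 23 without a start one of 0.958.

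**Figure D3:**
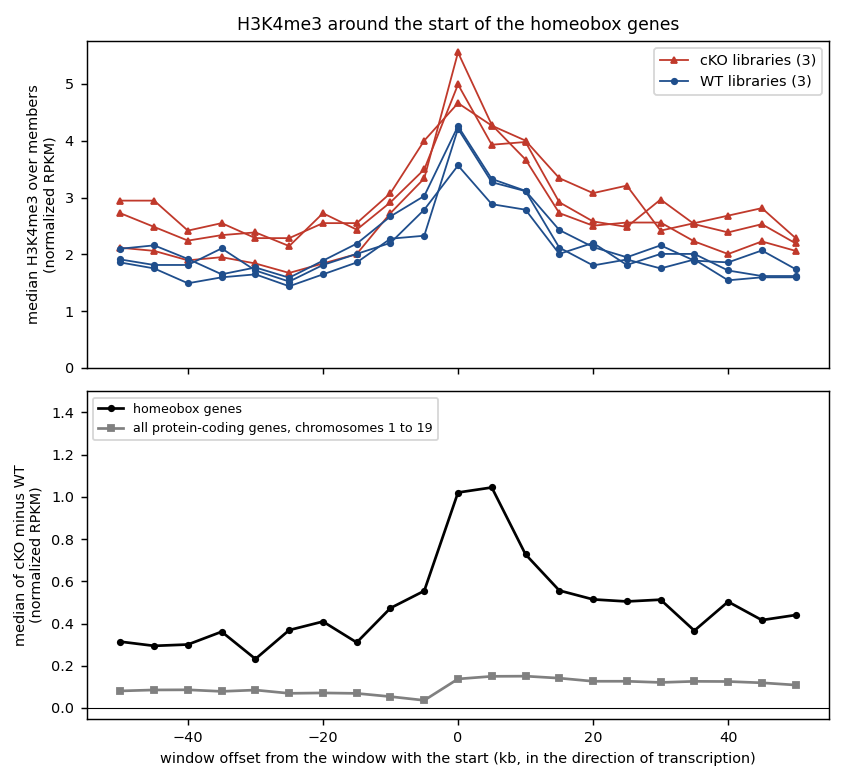
Upper panel, median H3K4me3 over the 63 genes (normalized RPKM) in each library, by distance from the window with the start, in the direction of transcription; lower panel, median of cKO minus WT for the 63 genes and for all protein-coding genes. The 3 cKO libraries lie above the 3 WT libraries at the start, and the homeobox curve peaks at 1.02 and 1.04 while that of all genes stays below 0.151.

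On the deposited scale the difference tended to be larger where a window held more CpGs. In the 334 windows the Spearman correlation of CpG count with cKO minus WT was 0.391 and in the 63 highest windows 0.344, a description across windows that share libraries and neighbours. In the 334 windows CpG count also went with the level itself, with correlations of 0.561 with the WT mean and 0.627 with the cKO mean. No correlation with the edgeR fold change was computed. In windows with 25 to 49 CpGs the median difference was 0.462 for the homeobox genes (92 windows) and −0.0694 for all windows. With 100 to 149 CpGs it was 1.18 (42 windows) against 0.177, and with 200 to 299 CpGs it was 1.08 (30 windows) against 0.485. At like CpG counts the median of the homeobox windows was thus above that of all windows in every bin. The bins below 25 and from 300 CpGs held only 5 and 3 homeobox windows. The 6 genes whose highest window held fewer than 70 CpGs, *Meis1*, *Meis2*, *Pax3*, *Pax4*, *Pax5* and *Pax7*, had a median difference of 0.594, and the 57 others had 1.17. By edgeR their median log2 fold changes were −0.13 and 0.16. The start windows, with a median of 167 CpGs, had 0.16 by edgeR, and the 334 windows, with a median of 64, had 0.29. The Spearman correlation of the WT mean with the difference, which share the WT values, was −0.0934 over the 63 highest windows.

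**Figure D4:**
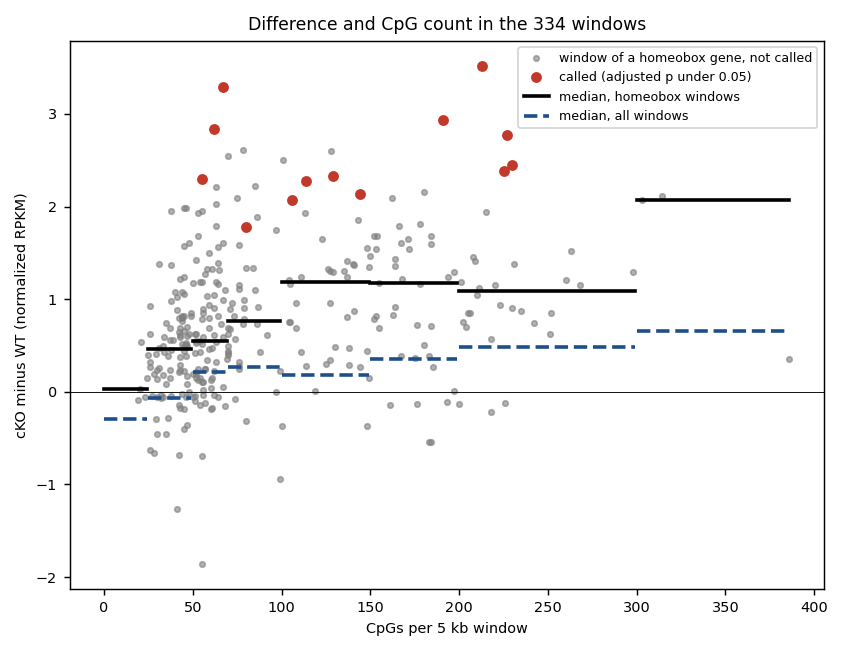
Difference cKO minus WT (normalized RPKM) against the number of CpGs in each of the 334 windows of homeobox genes; red points are the 13 called windows, black bars the median of homeobox windows per CpG bin and dashed blue bars that of all windows. The black bars lie above the blue ones in every bin. Below 25 CpGs they are at 0.0333 against −0.299 (5 homeobox windows of 2 genes). From 300 CpGs on they are at 2.07 against 0.657 (3 homeobox windows of 3 genes).

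Other families of developmental factors were read in the same way and from the same libraries, without a test between lists. Over the highest windows of all genes, 51.1% were higher in cKO, 1.22% gained and 1.14% lost (limma). The highest windows of the 27 Hox genes had a median difference of 1.56, with 26 higher in cKO, 5 gains and 0 losses (limma). By edgeR they had a median log2 fold change of 0.32, with 22 higher, 0 gains and 0 losses. Those of 74 Fox, Sox, Tbx and Gata genes, also factors of organ development with CpG-rich promoters, had a median of 0.304, with 48 higher, 3 gains and 1 loss. By edgeR their median was −0.0011, with 37 higher, 0 gains and 0 losses. Their median CpG counts per highest window were 146 and 155, against 168 for the 63 homeobox genes.

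The protein partners of these factors were read as well. Of 31 listed cofactors 29 had a window, 2 gained and 0 lost H3K4me3 (limma, against 1.22% and 1.14% of all genes), and the median difference was 0.328. Of the 29, 16 (55.2%) were higher in cKO, against 51.1% of the highest windows of all genes. By edgeR 9 of the 29 were higher, the median log2 fold change was −0.13 beside −0.11 over all genes, and 0 were called. Both gains were partners of LIM-homeodomain proteins, *Lmo4* (6.98 in cKO, 4.49 in WT, difference 2.49 ± 0.42, adjusted p = 0.033, limma) and *Ssbp3* (6.66 and 3.44, difference 3.22 ± 0.542, adjusted p = 0.0326). edgeR called neither, with log2 fold changes of 0.47 (adjusted p = 0.758) and 0.87 (adjusted p = 0.448). Among the 11 LIM partners 7 were higher in cKO, among the 8 TALE partners such as the Pbx proteins 5, among the 5 Eya and Dach partners of Six-family and Pax proteins 2, and among the 5 Groucho corepressors 2.

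The single calls depended on which libraries were kept. All 13 windows were called without cKO replicate 1, and 5 of them without cKO replicate 3, the 3 of *Pitx1* and those of *Lhx2* from 38360001 and *Pax5* from 44545001. Leaving out cKO replicate 4 or any 1 of the WT libraries ended all 13 calls; the whole table then gave 0 calls, or 1 without WT replicate 1. The direction at each of the 13 windows stayed in every case.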

How the data were processed

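H3K4me3 and input were measured in *Setd1b* cKO and WT GV oocytes, 3 H3K4me3 and 2 input libraries per genotype. The authors trimmed reads (Trim Galore 0.4.2), mapped them to GRCm38 (Bowtie2 2.2.9, per the submitters' processing notes) and removed mappings with quality under 20. They counted 5 kb windows in SeqMonk and left out windows with high input. For H3K4me3 the authors deposited a score, enrichment-normalized RPKM shifted and scaled per library. For input they deposited a signal, the library-scaled reads per window, not divided by length (the authors' RPM). Whole reads were recovered from equal steps (tolerance 0.1 of a step, 100% of values), and intervals of counting error are not given for them, since PCR duplicates cannot be told apart.

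The test of each window used limma 3.58.1 (R 4.3.3) without trend, two-sided, Benjamini-Hochberg over 544879 windows, and with edgeR 4.0.16 (TMM, quasi-likelihood, at least 10 reads). Gene starts came from GENCODE M21, CpGs from the GRCm38.p6 sequence and promoters from RefSeq. The members and lists were chosen with earlier results of these data known. Genes were named with values if called, among the 6 largest increases or decreases, highest in their family, or with at least 2 called windows; others were named after their values were seen, and single results of a few genes are not reported here. Python 3.11.15, numpy 2.4.6, pandas 2.3.3 and matplotlib 3.10.9 made the tables and figures.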

Additional observations from a re-analysis of the deposited data

How the results depend on the processing

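The direction of the shift held under each alternative run, and the number of calls did not. The median difference at the highest windows was 0.88 to 1.21 when single libraries were left out, 0.984 with a replicate block and 1.02 at the start windows. On other scales it was 0.27 on log2(value + 1) and 0.15 as the log2 fold change of edgeR on whole reads (chosen after seeing the data, as were the comparisons within replicate 1 and within replicate 4). The highest windows gave 4 gains in the deposited values, 5 with an intensity trend or a mean of at least 1, 18 with the replicate block, 1 by edgeR, 0 on log2(value + 1) and 0 to 7 without single libraries. Start windows gave 2, 16 with the block, 3 with a mean of at least 1, 1 by edgeR, 0 on the log2 scale and 0 to 4. Over all windows of the genes the 13 gains became 21 with the trend (11 of the 13 among them), 44 gains and 1 loss with the block, 16 with a mean of at least 1, 15 with antisense transcripts included, 8 by edgeR, 0 on log2(value + 1) and 0 to 29. The whole table gave 5539 calls, 19492 with the trend, 33433 with the block, 7503 with a mean of at least 1, 11514 by edgeR, 0 on log2(value + 1) and 0 to 17979. The cause of these changes was not tested. A mean of at least 1 tests fewer windows, and leaving out 1 library leaves fewer samples.

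The replicate numbers come from the sample titles, which do not say what they stand for. The groups share 1 and 4. The H3K4me3 libraries numbered 4 held 29041174 (cKO) and 32775874 (WT) reads in windows, the others 10856015 to 13085547. Deviations from the group means correlated by 0.319 for the libraries numbered 1 and 0.019 for those numbered 4. Between libraries with different numbers they correlated by −0.227 to 0.133.

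Of 29 named differences, 5 changed sign in 9 of 319 alternative values: *Pax3* (−0.424 to 0.223 over libraries left out, positive without cKO replicate 4), *Nkx2-2* (−0.862 to 0.392, positive without cKO replicate 4), *Six4* (−1.26 to 0.306, positive without cKO replicate 3 or WT replicate 2 (0.132), and 0.977 with the block), *Pax5* (−0.197 without WT replicate 2 to 1.23, −0.207 with the block and −0.21 by edgeR), and by edgeR *Emx1* (−0.0113). Depth limits single windows, with 6 to 10 reads behind the WT values at *Pitx1*.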

Other observations

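Windows that the choice by name left out were read in the same way. The antisense or opposite-strand transcripts *Dlx1as*, *Dlx6as1*, *Emx2os*, *Nkx2-2as*, *Pax6os1* and *Six3os1* had highest windows with differences of −0.136, 0.0228, 1.37, 0.345, 1.59 and 1.75, and none was called (limma). At *Pax6os1*, next to the eye and brain regulator *Pax6*, the values were 7.61, 8.09 and 8.08 in cKO replicates 1, 3 and 4 and 6.67, 6.0 and 6.35 in WT replicates 1, 2 and 4, without overlap (adjusted p = 0.0669, limma with Benjamini-Hochberg adjustment).

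No window of *Dlx1*, *Dlx6* or *Nkx1-2* carried their own name in the table, so they are not among the 63 genes, and *Lhx8*, an oocyte transcription factor, was left out by the choice of genes. At the start of *Lhx8* the mean was 5.75 ± 1.65 in cKO and 5.58 ± 1.27 in WT (SD, n = 3). At *Dlx1*, a forebrain interneuron factor, it was 6.44 ± 0.293 and 5.85 ± 1.07, and at *Dlx6* 6.72 ± 0.643 and 6.70 ± 0.247. At *Nkx1-2* it was 5.40 ± 0.549 and 3.94 ± 1.17. None of the 4 was called.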
